A study of Mus musculus with 4 samples.

Results

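The 10 genes described here encode the contractile and cytoskeletal proteins by which smooth muscle is usually recognised: the actins Acta2 and Actg2, the tropomyosins Tpm1 and Tpm2, the actin-binding proteins Tagln, Cnn1 and Cald1, the myosin chains Myh11 and Myl9, and the intermediate filament protein Des. They were chosen by name, and all 10 were found among the 25149 genes of the tables. They were followed in single nonparenchymal cells from the livers of 4 mice, all wild-type males aged 8 to 10 weeks. The 2 CCl4 mice received carbon tetrachloride, a hepatotoxin that injures hepatocytes and on repeated dosing scars the liver, as 1 part in 9 parts of corn oil. The 2 corn oil mice received the oil alone. Both groups were given 10 µl per g of body weight into the peritoneum, 2 times a week for 5 weeks, and livers were taken 48 hours after the last injection. Each library is 1 mouse.

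In smooth muscle, myosin pulls on actin filaments, tropomyosin and caldesmon govern the access of myosin to them, and desmin ties the filaments into the cell's scaffold. In the liver, hepatic stellate cells lie along the sinusoids and store vitamin A. On injury they become myofibroblasts that lay down collagen and gain contractile proteins, with smooth muscle α-actin, the product of Acta2, as the customary marker. Portal fibroblasts can do the same. Many genes of this program are textbook targets of serum response factor (SRF), which binds the CArG box, and of TEAD factors, which bind the MCAT element.

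The promoters of the 2 members in which the search below found a CArG box are shown here, since Acta2 is the member that differed most between the groups. RefSeq promoters were found for 7 of the 10 members (GRCm38.p6). The 250 bases before the start site are given 5′ to 3′ on the strand of the gene, at chr19:34255374-34255623 (minus strand) for Acta2 and chr2:156775214-156775463 (plus strand) for Myl9. A CArG box was searched as CC, 6 bases of A or T, and GG, and a deviation was counted only within those 6 bases, so boxes that deviate in CC or GG were not sought. Capitals mark CArG boxes with up to 1 such deviation and the MCAT element CATTCC read on either strand.
Acta2: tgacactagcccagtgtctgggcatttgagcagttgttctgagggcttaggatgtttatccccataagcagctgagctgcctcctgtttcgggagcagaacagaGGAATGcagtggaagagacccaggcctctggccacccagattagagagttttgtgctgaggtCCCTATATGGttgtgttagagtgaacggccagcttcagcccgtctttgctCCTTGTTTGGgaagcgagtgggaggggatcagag
Myl9: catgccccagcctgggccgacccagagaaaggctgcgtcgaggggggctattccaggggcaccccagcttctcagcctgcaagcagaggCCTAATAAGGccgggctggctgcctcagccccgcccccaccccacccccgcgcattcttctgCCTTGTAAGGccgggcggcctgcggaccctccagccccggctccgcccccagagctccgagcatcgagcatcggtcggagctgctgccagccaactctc
The Acta2 promoter held 2 CArG boxes with 1 deviation, 84 and 34 bases before the start site, and an MCAT element 146 bases before it. Myl9 held an exact CArG box 161 bases before its start and one with 1 deviation 99 bases before it. Tpm1 and Cald1 each held an MCAT element, at 56 and 153 bases, and the other of the 2 Cald1 promoters held the sequence TATAAA, at 186 bases, while none of these motifs was in the windows of Des, Tpm2 and Cnn1. Of all 32851 RefSeq promoters, searched on both strands from 250 bases before to 50 after the start, 1.63% held an exact CArG box, 9.98% one with up to 1 deviation, 14.7% the MCAT element and 13.6% TATAAA. None of these motifs overlapped another in the windows of the members. A match is a description of these letters, not a binding site.

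Cells were assigned by gates on unique molecular identifiers (UMIs, 1 per captured transcript). The stellate gate held cells with at least 5 UMIs of Reln, Colec11 and Lrat, and the fibroblast gate cells with at least 20 UMIs of Col1a1, Col1a2 and Dcn and under 3 of the stellate genes. The endothelial gate held cells with at least 5 UMIs of Kdr, Ptprb and Egfl7. Cells in 2 gates were dropped. Those in both the stellate and the endothelial gate numbered 152 and 45 in CCl4 mice and 313 and 369 in corn oil mice. In each corn oil mouse this was more cells than the stellate gate kept. The stellate gate held 532 and 176 cells in CCl4 mice and 214 and 182 in corn oil mice, the fibroblast gate 81 and 36 against 31 and 22, and the endothelial gate 3391 and 2983 against 5547 and 5812. Libraries held 45408857 to 55529871 UMIs, and any pair of them shared 48 to 74 cell indices, at most 1.17% of the smaller library. Stellate-gate cells were deeper in CCl4 mice, with medians of 8566 and 8762 UMIs, than in corn oil mice, with 4906 and 4916. The labels give 1 batch, but the table of CCl4 mouse 1 was produced in an earlier run of the pipeline than the other 3, and the run cannot be told apart from that mouse. A level below is given in CPM, the usual count relative to the library's size, computed from the summed UMIs of a gate in a mouse and scaled by TMM. Summed marker levels are CPM without that scaling.

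The 11 stellate markers summed to 9745 and 8555 CPM in stellate-gate cells of CCl4 mice, against 15555 and 15856 in corn oil mice. In endothelial-gate cells they summed to 328 and 435 CPM in CCl4 mice and to 222 and 238 in corn oil mice. All 11 had UMIs in both gates in every mouse, so detection alone does not separate the gates. The list includes Reln, a gate gene, and Des, a member, so it is not independent of the gate or of the members. Markers of other cell types were found in the stellate gate too. The 6 Kupffer cell markers, all detected in every mouse, summed to 1972 and 873 CPM in CCl4 mice, against 4774 and 5820 in corn oil mice. The 9 vascular smooth muscle markers that are not members summed to 533 and 513 CPM in CCl4 mice and to 249 and 242 in corn oil mice. Among them, phospholamban (Pln) was at 0 in all 4, and Notch3 stood at 149 and 152 CPM in CCl4 mice and 72.4 and 30.5 in corn oil mice. Whether RNA of these markers came from stellate cells or from others was not tested. In the fibroblast gate, 5 mesothelial markers summed to 556 and 1086 CPM in CCl4 mice, against 686 and 1679 in corn oil mice. Cells there with under 2 UMIs of Msln, Upk3b, Lrrn4 and Upk1b numbered 64 of 81 and 23 of 36 in CCl4 mice. In corn oil mice they numbered 17 of 31 and 10 of 22. Mesothelial-marked cells were thus a larger part of this gate in corn oil mice, and their effect on its results was not tested. The mice thus differed in Kupffer marker RNA in the opposite direction to the members, and in RNA of the vascular smooth muscle markers in the same one. Their part in the results was tested only by leaving out marked cells, as given below.

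Of the members, Cnn1 and Actg2 were scarce. Cnn1, basic calponin, which restrains actomyosin in vascular and visceral muscle, had 2, 2, 3 and 4 UMIs in all kept cells of CCl4 mouse 1, CCl4 mouse 2, corn oil mouse 1 and corn oil mouse 2. Actg2, the actin of visceral smooth muscle, had 110 and 75 UMIs in CCl4 mice and 73 and 22 in corn oil mice, and these were spread over all cell classes: Kupffer-gate cells held 4.52 and 2.51 unscaled CPM in CCl4 mice and 1.66 and 0.865 in corn oil mice. Neither passed the filter on low counts in the stellate gate. Myh11, the smooth muscle myosin heavy chain, was detected in the gate, as given below. The name smooth muscle is used here for the gene list and not given to the cells.

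In stellate-gate cells the other 8 members were higher in CCl4 mice, by 0.77 to 5.34 on the log2 scale, and for none of them did the groups overlap; of all genes tested in the gate, 28.9% were higher in both CCl4 mice than in both corn oil mice. All 8 were called by edgeR's quasi-likelihood test, a call being a Benjamini-Hochberg adjusted p under 0.05 across all 9923 genes tested there. Of these genes 15.3% were called in either direction and 7.09% were called higher. The median log2 change of the 8 was 2.15, against -0.01 over all genes tested. Members that are nearly silent in corn oil mice passed the filter through the CCl4 mice, so that count is a description.

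Acta2, smooth muscle α-actin, stood at 586 and 651 CPM in CCl4 mice, against 24.1 and 5.23 CPM in corn oil mice. That is a log2 change of 5.34 (SE 0.43, n = 2 mice each; adjusted p = 0.000459, edgeR). The corn oil values rest on 33 and 6 UMIs, 14 of the 33 in a single cell, where CCl4 mice held 3038 and 1093 UMIs. The log2 change was 6.90 without corn oil mouse 1 and 4.69 without corn oil mouse 2.

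The tropomyosins lie in the groove of the actin filament and gate its use by myosin. Tpm1 stood at 1065 and 1121 CPM in CCl4 mice, against 175 and 113 CPM in corn oil mice (log2 change 2.92, SE 0.23; adjusted p = 0.000459, edgeR). Tpm2 stood at 172 and 188 CPM in CCl4 mice and at 37.2 and 30.5 CPM in corn oil mice (log2 change 2.40, SE 0.20; adjusted p = 0.000487, edgeR). Tpm2 was close between mice of a group, and Tpm1 was so in CCl4 mice but less in corn oil mice. Both genes were several-fold apart between the groups.

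Tagln, transgelin or SM22α, bundles actin filaments. Its level was 1246 and 1336 CPM in CCl4 mice, against 141 and 109 CPM in corn oil mice, a log2 change of 3.37 (SE 0.20; adjusted p = 0.000169, edgeR). Cald1, caldesmon, which binds actin and tropomyosin and inhibits the myosin ATPase, stood at 1568 and 1430 CPM in CCl4 mice and at 665 and 534 CPM in corn oil mice (log2 change 1.32, SE 0.19; adjusted p = 0.00269, edgeR). Unlike Acta2, Cald1 was thus well detected in stellate-gate cells of corn oil mice. Opposite-strand genes overlap Tagln, Cald1 and Des in the GENCODE annotation, among them Pcsk7 at Tagln, and the sources used here do not state whether counting used strand, so their reads may not be told apart.

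The motor proteins were Myh11, the smooth muscle myosin heavy chain, and Myl9, a regulatory light chain whose phosphorylation switches contraction on. Myh11 stood at 72.0 and 49.5 CPM in CCl4 mice, against 21.9 and 10.5 CPM in corn oil mice (log2 change 1.90, SE 0.34; adjusted p = 0.00768, edgeR). Myl9 stood at 171 and 185 CPM in CCl4 mice and at 72.9 and 38.4 CPM in corn oil mice (log2 change 1.66, SE 0.27; adjusted p = 0.00490, edgeR). Each was more variable between the 2 corn oil mice than Tpm2 or Tagln.

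Des, desmin, is a classical marker of stellate cells in rodents whether or not they are activated. It stood at 86.1 and 95.4 CPM in CCl4 mice, against 56.1 and 49.7 CPM in corn oil mice, the smallest called change of the 8 (log2 change 0.77, SE 0.19; adjusted p = 0.0294, edgeR). The Des call was lost in 6 of the alternatives run. Cells with at least 3 Kupffer marker UMIs numbered 44 and 9 in CCl4 mice and 34 and 37 in corn oil mice. Without them the log2 change of Des was 0.27 (adjusted p = 0.450, edgeR) and that of Myh11 was 1.46 (adjusted p = 0.0645, edgeR). The other 6 members kept their calls. Leaving out cells with at least 2 UMIs of Lmod1, Kcnmb1, Pln and Casq2 removed 52 and 26 stellate-gate cells in CCl4 mice. In corn oil mice it removed 1 and 3, so it acted mostly on CCl4 mice. The same 6 members kept their calls after it, and so did Myh11.

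**Figure D1:**
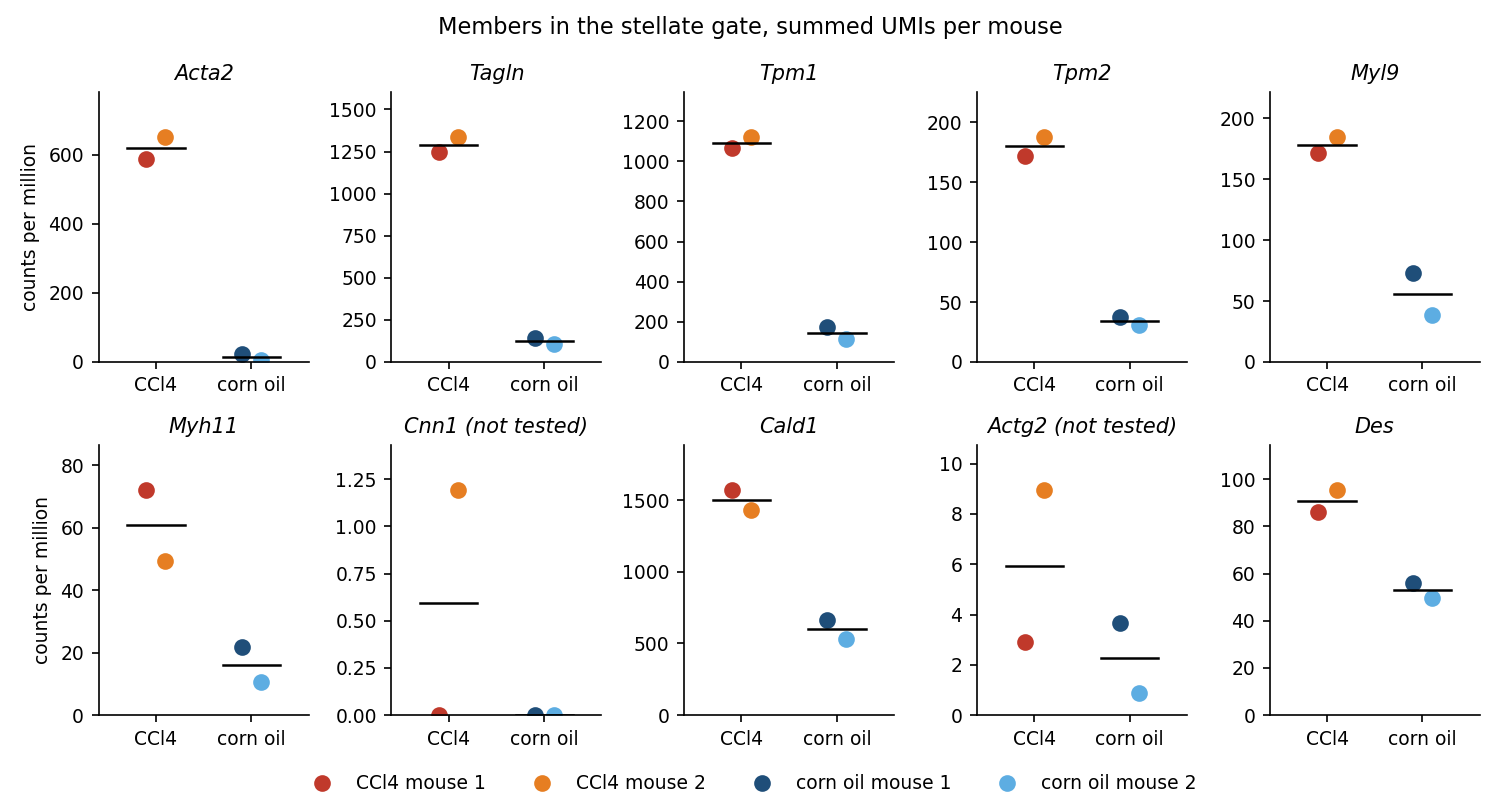
Level of each of the 10 genes in the stellate gate in CPM on linear axes from 0, with 1 point per mouse, CCl4 mice on the left and corn oil mice on the right, and a line at each group mean (n = 2). Except for Cnn1 and Actg2, which were not tested, both CCl4 points lie above both corn oil points, with Acta2 at 586 and 651 against 24.1 and 5.23 CPM.

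These sums mix how many cells hold a transcript with how much each holds, so detection was read in single cells after each had been thinned to 2000 UMIs. Thinning left out 4 of the 182 cells of corn oil mouse 2 and none from the other mice. At this depth Acta2 was detected in 28.6% and 24.4% of stellate-gate cells of CCl4 mice and in 1.87% and 1.12% of those of corn oil mice (39.3% and 38.6% against 2.80% and 2.75% without thinning). Kupffer-gate cells, which should lack the gene, had shares of 2.24% and 1.01% in CCl4 mice and 0.851% and 0.400% in corn oil mice after thinning. The shares in stellate-gate cells of corn oil mice, from 4 and 2 cells, are therefore close to this background.

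Other members were already present in corn oil mice. Tagln was detected in 65.0% and 55.7% of thinned stellate-gate cells of CCl4 mice, against 16.4% and 19.1% in corn oil mice. Tpm1 was detected in 77.6% and 73.3% against 27.6% and 21.3%, and Cald1 in 89.7% and 81.8% against 68.7% and 60.7%. Des was detected in 16.7% and 16.5% of cells in CCl4 mice and in 16.8% and 11.2% in corn oil mice, so its groups overlapped on this measure. Without thinning the Tagln shares were 84.2% and 75.6% against 28.0% and 30.2%, and the Des shares 49.4% and 52.3% against 29.4% and 23.6%.

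At least 3 of the 10 members were detected in 66.7% and 59.7% of thinned stellate-gate cells of CCl4 mice, against 20.1% and 11.8% in corn oil mice. The mean shares were 63.2% ± 5.00 and 15.9% ± 5.87 (SD, n = 2 each), a difference of 47.2 percentage points. An exact permutation test on these shares, two-sided, with 6 possible splits, gave p = 0.333, the smallest this design allows. Without thinning the shares were 93.6% and 86.9% in CCl4 mice and 43.0% and 36.3% in corn oil mice. Among thinned endothelial-gate cells the shares were 0.501% and 0.302% in CCl4 mice and 0.180% and 0.0692% in corn oil mice, and no thinned Kupffer-gate cell had 3 members.

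**Figure D2:**
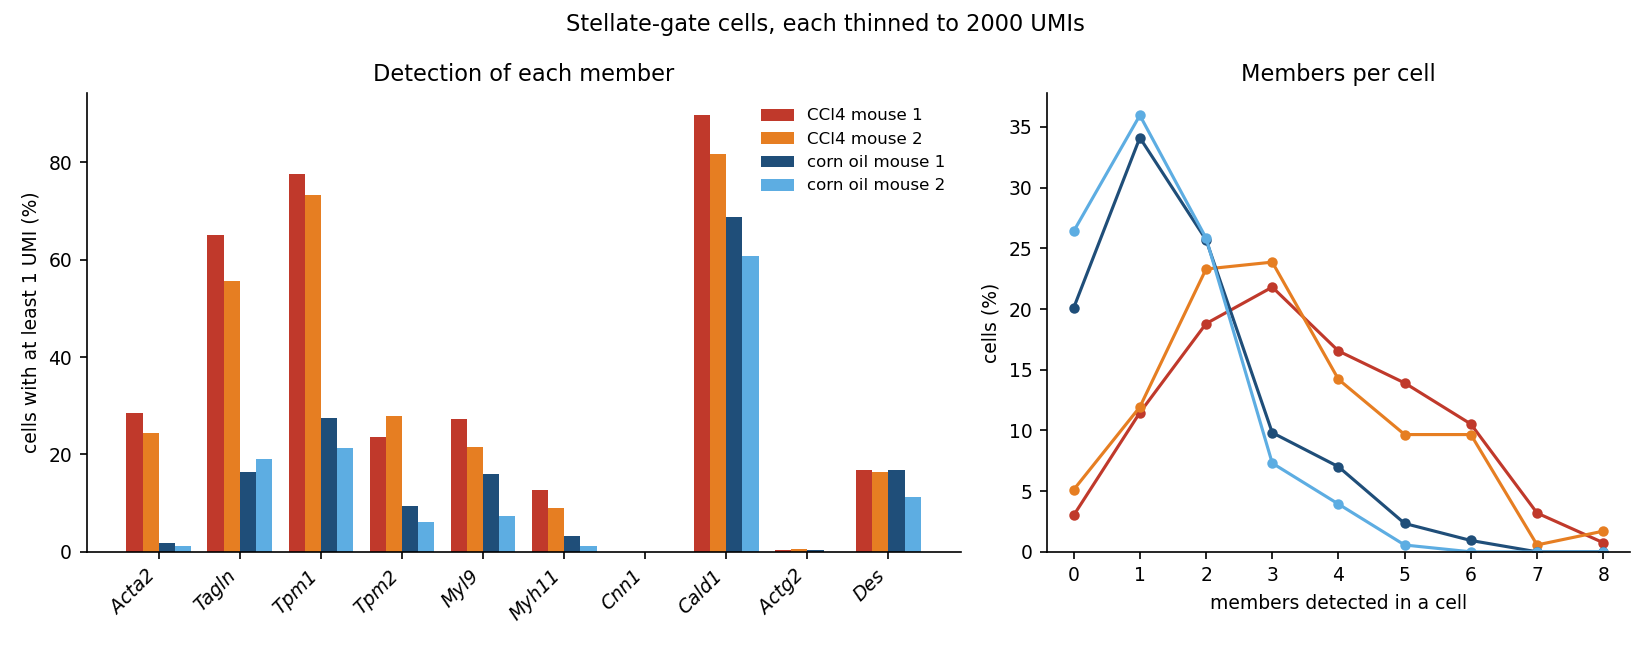
Left, share of stellate-gate cells with at least 1 UMI of each member, by mouse, after thinning each cell to 2000 UMIs. Right, share of the same cells by the number of members detected in them: corn oil mice peak at 1 member and CCl4 mice at 3, and 66.7% and 59.7% of the CCl4 cells against 20.1% and 11.8% of the corn oil cells held 3 or more.

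Within CCl4 mice the members were unevenly spread over cells, and Acta2 lay mostly inside the Tagln-positive cells. Of thinned cells with an Acta2 UMI, 93.4% of 152 and 93.0% of 43 also held Tagln, against 53.7% of 380 and 43.6% of 133 cells without Acta2. The reverse did not hold: of cells with Tagln, 41.0% of 346 and 40.8% of 98 held Acta2, against 5.38% and 3.85% of cells without Tagln. Tagln was thus found in many cells in which no Acta2 was captured at this depth.

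Myl9 was found in 52.0% and 58.1% of cells with Acta2, against 17.4% and 9.77% of cells without it. Tpm2 showed 46.7% and 51.2% against 14.5% and 20.3%. For Des the shares were 19.1% and 18.6% in cells with Acta2 and 15.8% and 15.8% in cells without, a smaller gap than for Tagln, Myl9 and Tpm2. All cells had been thinned to one depth, but cells with much free RNA of other types remain among them, and the shares carry counting error.

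**Figure D3:**
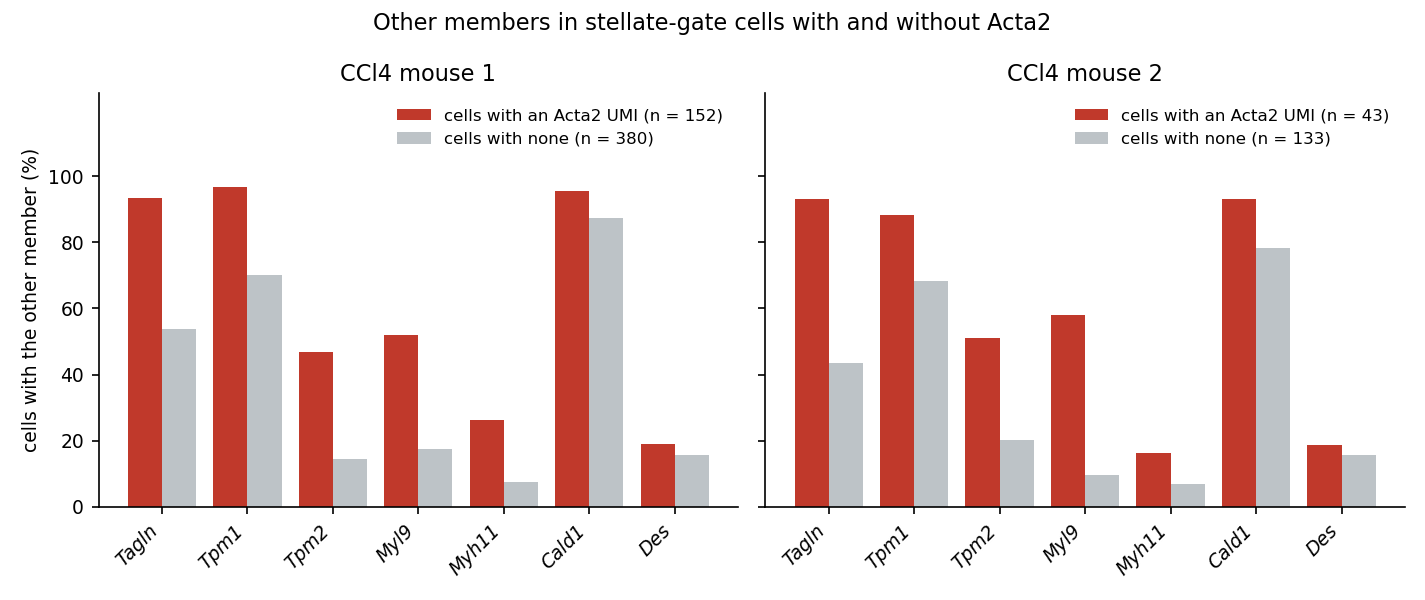
Share of stellate-gate cells of CCl4 mouse 1 (left) and CCl4 mouse 2 (right) in which each other member was detected, in cells with an Acta2 UMI (red) and with none (grey), after thinning to 2000 UMIs. Tagln was in 93.4% and 93.0% of the red cells, against 53.7% and 43.6% of the grey ones, while the bars of Des are nearly level.

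The genes whose pattern over thinned stellate-gate cells was most like the sum of the members were sought by Spearman correlation within each library, among the 2807 genes, members included, found in at least 10% of cells. Ranked by the lower of the values of both CCl4 mice (532 and 176 cells), the closest that are not members were Col4a1, Tpm4, Myadm, Csrp1, Ctgf, Mylk, Flna, Actn1, Actn4 and Fstl1. Col4a1, a basement membrane collagen chain, had correlations of 0.54 and 0.53 in CCl4 mice and 0.36 and 0.40 in corn oil mice. Mylk, the kinase that phosphorylates the myosin light chain, had 0.41 and 0.45 against 0.34 and 0.30. Actn1, an actin cross-linker, had 0.37 and 0.40 in CCl4 mice and -0.03 and -0.13 in corn oil mice.

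At the other end of the ranking stood macrophage genes, with the receptor gene Csf1r at -0.31 and -0.45 in CCl4 mice and -0.45 and -0.51 in corn oil mice. Each member was set against the sum of the others, where Des ranked 209th (correlations of 0.16 and 0.09 in CCl4 mice) and Tagln and Acta2 ranked 1st and 2nd. Without the Kupffer-marked cells Col4a1 had correlations of 0.48 and 0.52 in CCl4 mice and 0.24 and 0.20 in corn oil mice. Mylk then had 0.36 and 0.41 against 0.20 and 0.13, and Actn1 had 0.42 and 0.40 against 0.03 and 0.03. The cells of a library share its depth and its free RNA, and these values are descriptions.

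Cells of CCl4 mice with at least 3 members were close to the others in the stellate gate genes and differed in a few named genes. Every cell had to pass the minimum on the gate genes, so likeness in them is partly set by the gate. The stellate gate genes averaged 9.99 and 9.29 UMIs per thinned cell in cells with 3 or more members and 9.55 and 8.99 in cells with fewer. Col4a1 averaged 7.96 and 5.67 against 4.64 and 3.86 UMIs. It was also the closest gene outside the members in the ranking above, which used the same cells, so this is not a separate result. The Kupffer gate genes averaged 0.301 and 0.152 against 1.86 and 0.620 UMIs, so cells with few members carried more Kupffer RNA. The vascular smooth muscle genes Lmod1, Kcnmb1, Pln and Casq2 averaged 0.124 and 0.190 UMIs in cells with 3 or more members, against 0.0395 and 0.0141 in cells with fewer.

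Of the UMIs of the 8 members tested there, most in CCl4 mice lay in the stellate gate, save for Tpm1 and Cald1. The stellate gate held 66.5% and 67.0% of the Acta2 UMIs of all kept cells in CCl4 mice, against 13.4% and 2.76% in corn oil mice. For Myh11 the shares were 73.7% and 81.4% against 35.7% and 14.8%. Tpm1 and Cald1 are widely used actin regulators of nonmuscle cells too, and endothelial-gate cells held 35.0% and 49.1% of the Tpm1 UMIs in CCl4 mice and 76.8% and 75.2% in corn oil mice. These shares follow the number of cells of each gate as well as their RNA. Cells that passed 2 gates carried 18.0% and 4.72% of the Acta2 UMIs in CCl4 mice and 20.2% and 59.0% in corn oil mice. With cells of both the stellate and the endothelial gate counted as stellate, the log2 change of Acta2 was 5.04 and all 8 members kept their calls, that of Des with 1.73.

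**Figure D4:**
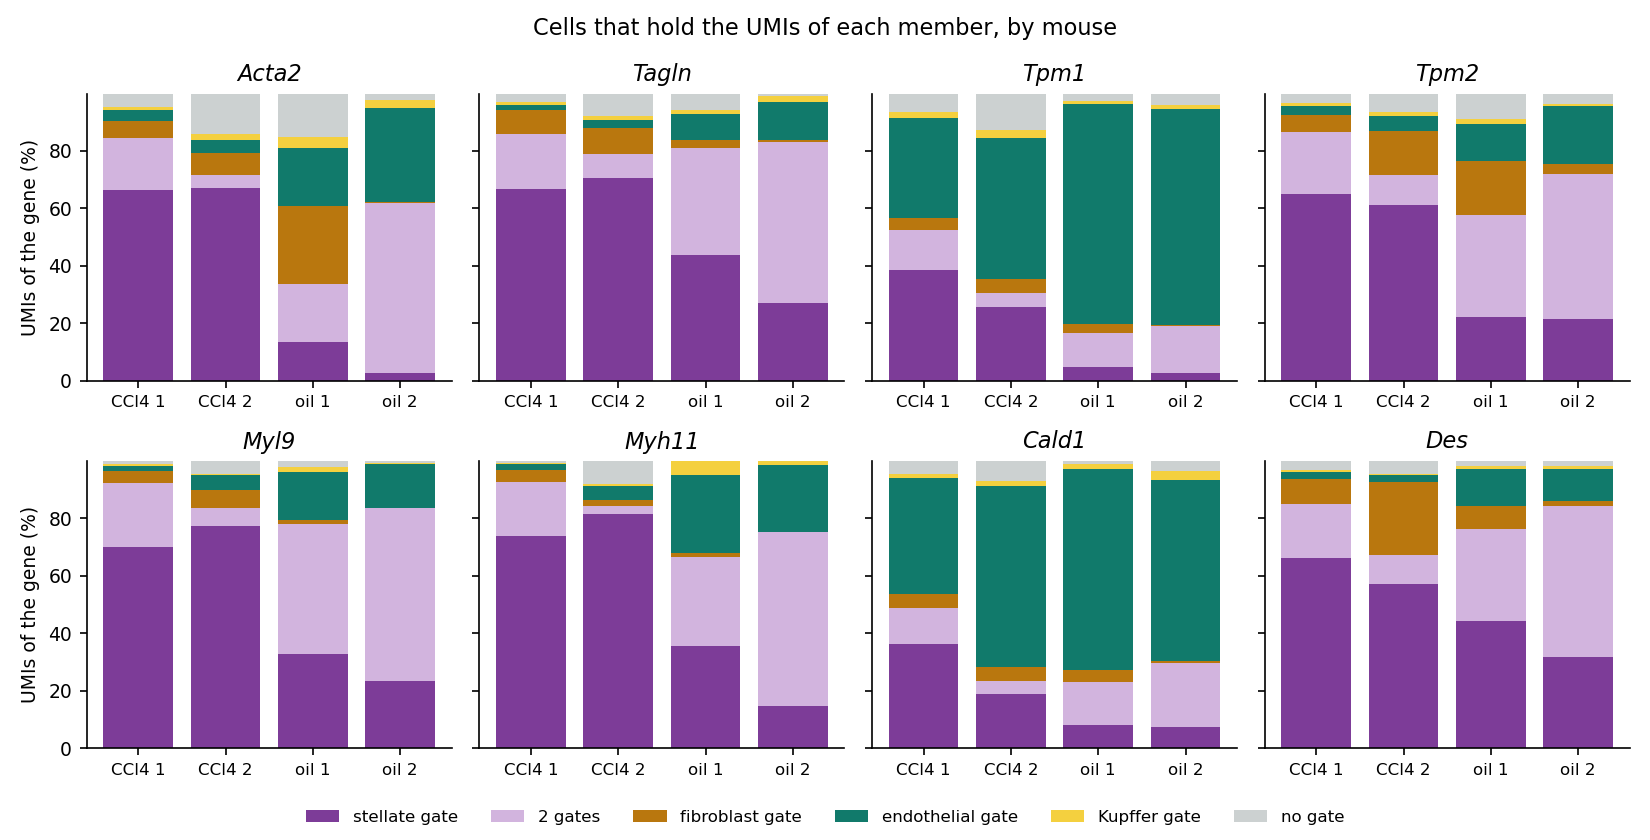
Percent of each member's UMIs in a library's kept cells that lay in each class of cells, by mouse, CCl4 mice on the left; oil stands for corn oil, and 2 gates for cells dropped because they passed more than 1 gate. Stellate-gate cells hold 66.5% and 67.0% of Acta2 in CCl4 mice, against 13.4% and 2.76% in corn oil mice, and endothelial-gate cells hold most Tpm1 and Cald1 in corn oil mice.

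Fibroblast-gate cells were low in Reln, Colec11 and Lrat by the rule of the gate, but they did not lack other stellate markers or the contractile genes. The 11 stellate markers, Des among them, summed to 1302 and 884 CPM there in CCl4 mice, against 820 and 585 in corn oil mice. Whether this RNA came from stellate cells was not tested. Tagln stood at 951 and 518 CPM in CCl4 mice, against 27.7 and 19.4 CPM in corn oil mice (log2 change 4.88, SE 0.54; adjusted p = 0.0783, edgeR). Acta2 stood at 322 and 226 CPM in CCl4 mice, against 155 and 6.45 CPM in corn oil mice (log2 change 1.59, SE 0.82; adjusted p = 0.774, edgeR). The 2 corn oil mice thus lay far apart in Acta2, on 67 and 1 UMIs, and Acta2 was not called. The groups did not overlap for 7 members, all higher in CCl4 mice. Of the genes tested in this gate, 18.8% were higher in both CCl4 mice than in both corn oil mice. Myh11, among the 7 members, was not tested and had 22 and 2 UMIs in CCl4 mice and 1 and 0 in corn oil mice. Cald1, also among them, stood at 1233 and 1120 CPM in CCl4 mice, against 1065 and 342 CPM in corn oil mice.

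No member of the 7 tested was called in the fibroblast gate, where edgeR called 0 of 7060 genes (0%), 488 of them with an unadjusted p under 0.05, and DESeq2 called 27 genes, Tagln included. This gate held 22 to 81 cells per mouse. Without corn oil mouse 1 edgeR called 201 genes, with Acta2 at a log2 change of 5.41 (adjusted p = 0.0174), but corn oil is then 1 mouse with 1 Acta2 UMI, assumed to vary as the CCl4 mice do. Tagln was called without any 1 of the 4 mice (adjusted p of 3.33e-07 to 0.0291). Its vascular smooth muscle markers summed to 210 and 146 CPM in CCl4 mice, against 89.6 and 23.6 in corn oil mice, with Pln and Pcp4l1 at 0 in all 4. Leaving out cells with at least 2 UMIs of Lmod1, Kcnmb1, Pln and Casq2 removed 20 and 11 cells in CCl4 mice and 0 in corn oil mice, where Casq2 was at 0 and Lmod1 at 2 and 0 UMIs, so it acted on CCl4 mice alone. After it the log2 change of Tagln was 4.29 and that of Acta2 0.82.

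Endothelial-gate cells held little of the members apart from Tpm1 and Cald1, and none was called among the 9 tested, where 6.08% of 13728 genes were called. Acta2 stood at 5.58 and 3.17 CPM in CCl4 mice, against 1.43 and 2.10 CPM in corn oil mice, and Tagln at 5.61 and 3.56 against 1.15 and 1.80 CPM (log2 change 1.64, SE 0.38; adjusted p = 0.0546, edgeR). Tpm1 stood at 169 and 156 CPM in CCl4 mice and at 114 and 111 CPM in corn oil mice (log2 change 0.53, SE 0.13; adjusted p = 0.0610, edgeR). Cald1 stood at 306 and 350 against 229 and 157 CPM (log2 change 0.77, SE 0.20; adjusted p = 0.0743, edgeR). DESeq2 called these 4 members higher in CCl4 mice.

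**Figure D5:**
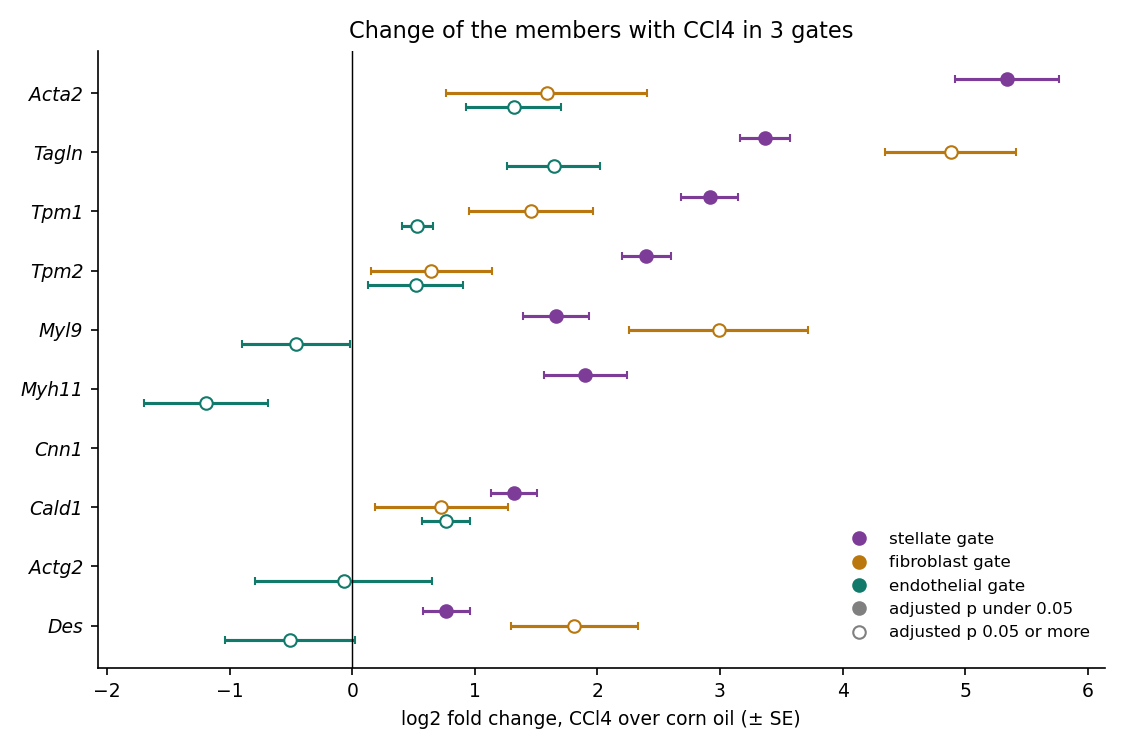
log2 fold change of each member, CCl4 over corn oil, with its standard error, in the stellate, fibroblast and endothelial gates (n = 2 mice each); filled points have an adjusted p under 0.05 in edgeR's test. Filled points are found only in the stellate gate, where they run from 0.77 for Des to 5.34 for Acta2; Cnn1 was tested in no gate, and Myl9 had no UMI in the fibroblast gate of corn oil mouse 2.

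The difference of the CCl4 effect between gates was tested as an interaction with the mouse as a block. Between the stellate and the endothelial gate, 6 of 9 members tested had a larger change in stellate-gate cells, where 5.33% of 13739 genes differed in either direction. The difference of log2 changes was 4.08 for Acta2 (SE 0.56; adjusted p = 0.00450, edgeR), 3.17 for Myh11 (SE 0.47; adjusted p = 0.00632, edgeR) and 2.45 for Tpm1 (SE 0.19; adjusted p = 0.000438, edgeR). It was 2.18 for Myl9, 1.91 for Tpm2 and 1.77 for Tagln, each with an adjusted p under 0.05, though that of Tagln was 0.0707 without corn oil mouse 2. Cald1 differed by 0.58 (adjusted p = 0.0924, edgeR) and Des by 1.30 (adjusted p = 0.134, edgeR), and these were not called, nor was Actg2.

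Between the fibroblast and the stellate gate 0.0885% of 10167 genes differed and no member did. Acta2 had a difference of -3.50 on the log2 scale, a smaller change in fibroblast-gate cells (SE 0.59, adjusted p = 0.0580, edgeR). Without corn oil mouse 2 the difference was -3.86 for Acta2, -1.70 for Tpm1 and -2.07 for Tpm2. Without corn oil mouse 1 it was -1.36 for Acta2, -0.72 for Tpm1 and -0.87 for Tpm2. Corn oil was then 1 mouse, and the size of these differences depended on which mouse was left. Between the fibroblast and the endothelial gate 0.877% of 13563 genes differed, with Tagln as the one member called, at 3.28 (SE 0.51; adjusted p = 0.000112, edgeR).

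Partners of the contractile apparatus were followed in 4 lists. Of 28 actomyosin and thin filament partners, 15 of the 24 tested in the stellate gate rose with CCl4, beside 7.09% of all genes called higher there, and none fell, with a median log2 change of 0.96, against -0.01 over all genes. The leiomodin gene Lmod1, an actin filament nucleator of smooth muscle and one of the vascular smooth muscle markers above, had 30.5 and 41.1 CPM in CCl4 mice against 4.38 and 1.74 CPM in corn oil mice. Csrp2, a LIM protein of the actin cytoskeleton, had 113 and 84.0 CPM against 13.1 and 17.4 CPM. The nonmuscle paralogs of members changed as well, Tpm4 with 755 and 883 CPM against 246 and 158, Tagln2 with 1218 and 1081 against 297 and 289, and Cnn2 with 446 and 482 against 143 and 67.1.

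In the list of contraction control, with myosin phosphatase subunits and endothelin and angiotensin receptors among its genes, 0 of 17 tested genes were called in the stellate gate, with a median log2 change of -0.08. Of the regulators of the program, 8 of 16 rose, against the same 7.09% of all genes. Srf, the transcription factor itself, had 56.7 and 44.1 CPM in CCl4 mice against 17.5 and 8.72 CPM in corn oil mice, and Tead1 had 362 and 345 against 163 and 129 CPM. Ankrd1, a textbook target of the TEAD coactivators YAP and TAZ, had 122 and 52.5 CPM in CCl4 mice, against 0.729 and 0 CPM in corn oil mice, where 1 UMI was seen in all, so it passed the filter through the CCl4 mice. Fhl2, a LIM-domain cofactor, had 107 and 181 against 15.3 and 14.8 CPM.

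Of the 6 intermediate filament partners of Des, 5 rose in the stellate gate. Nes, nestin, had 269 and 268 CPM in CCl4 mice, against 45.9 and 46.2 CPM in corn oil mice (log2 change 2.54, SE 0.18; adjusted p = 0.000290, edgeR), and Vim, vimentin, 1524 and 1451 against 681 and 724 CPM. Nes and Vim thus differed by more than Des itself. In the endothelial gate, where 3.08% of all genes were called higher, 6 of 26 actomyosin partners rose, led by the filamin gene Flna (log2 change 1.17), and 2 of 16 genes of contraction control, Ednrb and Gucy1b1. Of the regulators there, 1 of 16 fell, Mkl2, and Lmna and Nes rose among 5 filament partners. No gene of the 4 lists was called in the fibroblast gate.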

How the data were processed

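Liver nonparenchymal cells were profiled on the BD Rhapsody cartridge platform after pronase and collagenase perfusion and removal of hepatocytes at 50 × g. The deposited values are UMI counts per cell and gene, made per the file headers with the BD WTA Rhapsody Analysis Pipeline 1.9.1 on GRCm38 with GENCODE vM19. These sources name no aligner. A cell was kept if it had 200 or more genes and no more than 25% mitochondrial UMIs, which left 25861 of 27091.

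Counts were summed per gate and mouse and tested with edgeR 4.0.16 in R 4.3.3 (TMM, filterByExpr, quasi-likelihood), with DESeq2 1.42.0 as an alternative. The test was tried on simulated counts first. Doublet scores came from Scrublet in scanpy 1.11.5 and were used only in an alternative. Numpy 2.4.6, scipy 1.17.1 and matplotlib 3.10.9 were also used.

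The members and the companion lists were chosen with earlier results of these data known. All members were named, with up to 6 called genes per companion list and gate by absolute log2 change, and the 10 closest genes in cell pattern. Each library is 1 mouse per the labels. The p-values of edgeR and DESeq2 set a group difference against a spread between mice that is estimated partly from the other genes tested. Shares of cells differ between the mice of a group and carry counting error as well.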

Additional observations from a re-analysis of the deposited data

Results flagged for a closer look

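The change with CCl4 differed between the stellate and the endothelial gate by the interaction test for 6 members, with differences of log2 changes of 4.08 for Acta2, 1.77 for Tagln, 2.45 for Tpm1, 1.91 for Tpm2, 2.18 for Myl9 and 3.17 for Myh11, each larger in stellate-gate cells. Tagln also differed between the fibroblast and the endothelial gate, by 3.28. Kupffer marker RNA and depth differed between the groups in the stellate gate, as given above, and their part in these differences was not tested.

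Cells that passed 2 gates, which entered no main comparison, also held more RNA of the members in CCl4 mice. The 10 members summed to 2358 and 1474 CPM there in CCl4 mice, with a mean of 1916, against 567 and 529 in corn oil mice. These cells were not tested on their own. Those in both the stellate and the endothelial gate entered only the alternative that counted them as stellate.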

How the results depend on the processing

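In the stellate gate all 8 members were higher under every alternative run, by at least 0.27 on the log2 scale. In 144 combinations of member and alternative the call was kept in 137. It was lost 6 times for Des and 1 time for Myh11 (without Kupffer-marked cells), and 6 to 8 members were called. Tagln in the endothelial gate crossed the threshold in 4 alternatives, and in the fibroblast gate in DESeq2, without the filter and without each mouse. The causes were not tested.

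Genes called in the stellate gate, 1520 in the report, numbered 965 with DESeq2, 2287 without the filter, 891 with cells scaled to 5000 UMIs before gating, 931 in purer gates, 730 without Kupffer-marked cells and 2772 with stellate and endothelial cells counted as stellate, an alternative chosen after seeing the data, as was the removal of mesothelial-marked cells. In the endothelial gate they numbered 1433 with DESeq2, 1281 without Kupffer-marked cells, 451 without the 5% highest doublet scores and 279 to 732 without 1 mouse; 4 members were called with DESeq2, 2 with library size alone, 1 each in the replicate block, at higher thresholds and without Kupffer-marked cells, and 0 to 1 without 1 mouse. In the fibroblast gate 27 genes and 1 member were called with DESeq2, 239 and 4 without the filter, and 15 to 201 and 1 to 4 without 1 mouse. Its alternatives on mitochondrial share, scaling, thresholds, purity, Kupffer-marked and mesothelial-marked cells left under 20 cells in a mouse and were not run. Without 1 mouse, the interaction called 32 to 390 genes and 1 to 3 members for fibroblast minus endothelial and 0 to 218 genes for fibroblast minus stellate.

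Signs turned only for values that were not called. In the endothelial gate, Actg2 was at 0.035 in the replicate block, -0.82 to 1.28 without 1 mouse, 0.11 scaled, 0.067 in purer gates and 0.10 without Kupffer-marked cells, and Des at 0.053 with higher thresholds and 0.10 without Kupffer-marked cells. Without 1 mouse, fibroblast minus endothelial was -0.66 to 4.63 for Acta2, -0.27 to 0.99 for Cald1, -0.31 to 1.39 for Tpm2 and -6.63 to 9.60 for Actg2, and fibroblast minus stellate was -1.02 to 0.42 for Cald1 and -0.28 to 5.00 for Myh11.

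The titles number the mice 1 and 2 in both groups, but same-numbered mice did not deviate together: their correlation was -0.03, -0.05 and 0.08 in the stellate, fibroblast and endothelial gates. With the replicate block 1446, 0 and 1100 genes were called there. The difference in the share of cells with 3 or more members was 39.1 points at 1000 UMIs, 50.6 without thinning, 42.5 for 2 or more and 33.0 for 4 or more members, and 43.1 to 51.4 without 1 mouse. With 2 mice a group the permutation test of a share cannot go below p = 0.333, and Cnn1, and Actg2 outside the endothelial gate, had too few UMIs to pass the filter. Without 1 mouse, the lone mouse left in its group is assumed to vary like the other group.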
